A study of Mus musculus with 15 samples.

Results

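Genes of fatty acid uptake and of the peroxisome proliferator-activated receptors (PPARs) were followed in lung lobes of mice whose airways had been inflamed with an extract of house dust mite (HDM), a model of allergic asthma. The 10 genes were Cd36, Lpl, Fabp4, Fabp5, Pparg, Plin2, Scd1, Angptl4, Gpihbp1 and Pdk4, chosen by name from a table of 55421 genes. Earlier results of these data were known when the 10 genes were chosen. All 10 had counts in every library and passed the filter on low counts, as did 19562 genes in all. The 15 libraries came from 1 mouse each: 5 short-term mice, 5 long-term mice and 5 mice with HDM alone. All were wild-type female C57BL/6 mice. Intranasal HDM extract, 10 µg a time, was given to every group for 2 weeks, 5 days a week, and the mice were killed on day 15. Adipose-derived mesenchymal stem cells (MSCs) were given intranasally as well, on day 13 to the short-term mice and on day 6 to the long-term mice. The age of the mice, the donor of the MSCs and any vehicle given to the HDM mice are not stated in the labels. Saline controls were not analysed here, so levels are relative to an inflamed lung and the response to HDM itself was not measured. Short-term against HDM asks what the cells do soon after they are given, long-term against HDM what remains later, and short-term against long-term whether the timing matters. The groups also differ in the stage of HDM challenge at which the cells were given. Time since MSC and that stage cannot be told apart.

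Long-chain fatty acids reach lung cells from lipoproteins in the capillaries or from lipid taken up in the airspace. Lipoprotein lipase, held on the capillary wall by GPIHBP1 and restrained by ANGPTL4, frees fatty acids from triglyceride, CD36 helps them across the membrane, and fatty acid-binding proteins carry them in the cell. They are then desaturated, stored in droplets coated by perilipins or burned in mitochondria, and they also act as ligands of the PPARs, which switch on many of the same genes. In the lung, PPARγ is known for its role in the development and lipid handling of alveolar macrophages, and type 2 alveolar epithelial (AT2) cells use desaturated fatty acids for surfactant.

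Short-term libraries held between 17182599 and 32119067 counts, long-term libraries between 31762964 and 41762167, and HDM libraries between 29635897 and 44201637. One short-term library, replicate 3, stood apart. It had the lowest total and counts in 43174 genes, against 26542 to 29154 in the others, and 12 thymocyte markers summed to 4056 CPM (counts scaled to library size) in it, against 86.4 to 129 CPM in the other 4 short-term libraries. Its limma voom quality weight was 0.134, the lowest of all. It was the lowest of the 15 libraries for 7 of the 10 genes, so values are given with and without it. HDM replicates 1 and 2 stood apart from the rest on the second principal component. All libraries held lung RNA by their markers: Sftpc, a surfactant protein of AT2 cells, lay between 3606 and 9051 CPM.

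Upstream sequences were found for 4 of the 10 genes in the RefSeq table used here, and those of Cd36, Plin2 and Pdk4 are shown because Cd36 fell after short-term MSC, Plin2 lay just outside the threshold, and Pdk4, a textbook PPAR target, did not pass the test. Each line gives the 250 bases before an annotated start on genome build GRCm38.p6, 5′ to 3′ on the gene's own strand. Capitals mark the hexamer of the nuclear receptor half-site, AGGTCA or its reverse complement TGACCT.
Cd36: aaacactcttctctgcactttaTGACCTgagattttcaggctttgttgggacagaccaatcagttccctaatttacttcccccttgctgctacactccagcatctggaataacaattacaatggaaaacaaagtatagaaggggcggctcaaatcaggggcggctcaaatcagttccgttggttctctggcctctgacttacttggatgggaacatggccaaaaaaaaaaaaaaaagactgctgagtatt
Plin2: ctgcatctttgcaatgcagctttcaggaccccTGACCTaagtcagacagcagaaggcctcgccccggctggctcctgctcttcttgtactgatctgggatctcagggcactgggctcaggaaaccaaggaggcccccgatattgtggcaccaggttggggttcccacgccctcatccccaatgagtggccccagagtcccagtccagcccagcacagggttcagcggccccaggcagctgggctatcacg
Pdk4: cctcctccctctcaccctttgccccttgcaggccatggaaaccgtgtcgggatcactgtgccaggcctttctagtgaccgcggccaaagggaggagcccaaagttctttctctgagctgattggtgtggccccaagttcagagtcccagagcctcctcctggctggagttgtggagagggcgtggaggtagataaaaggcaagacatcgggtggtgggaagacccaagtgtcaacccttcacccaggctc
The Cd36 window lies on the minus strand at chr5:17835897-17836146, the Plin2 window on the minus strand at chr4:86670060-86670309 and the Pdk4 window on the minus strand at chr6:5496279-5496528. The Cd36 window precedes an annotated start inside the gene, not the gene's outer end on that strand, at position 17888801. Relative to the start, the half-site began at position -228 in Cd36 and at -218 in Plin2, and the Pdk4 window held none. Of the 3 annotated Pparg starts, 2 had a half-site, beginning at -28 and -9. The half-site was searched on both strands and is common: it was present in 14.02% of the 32851 upstream windows of all genes. A direct repeat of the half-site with 1 base between is a form that PPARs bind with their partner RXR. Its exact letters were in 11 of 32851 windows (0.0335%) and in none of the 6 windows of these genes. With so few matches anywhere, none was to be expected in 6 windows, and looser matches were not searched. A match in such a short window is a description of its letters only.

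The 10 genes spanned a wide range of levels (the plot of levels per length). Per kilobase of annotated exon in mice with HDM alone, Scd1 was highest at 937 ± 148 CPM per kb (mean ± SD, n = 5 here and below), followed by Cd36 at 240.1 ± 27.8 CPM per kb. Fabp5 (49.1 ± 8.97), Plin2 (37.0 ± 4.25), Gpihbp1 (26.6 ± 3.19) and Lpl (17.8 ± 3.07) formed a middle range on the same scale. Angptl4 (6.59 ± 0.956), Pparg (5.69 ± 0.304), Fabp4 (2.94 ± 0.609) and Pdk4 (1.47 ± 0.411) were lowest on this scale. The length used joins the exons of all annotated transcripts, 4489 bases for Fabp4 and 10478 for Lpl. It can exceed the length of the transcripts present, which lowers the value, so the order depends on the annotation. The SD ranges of Angptl4 and Pparg, next to each other in this order, overlapped in HDM mice. In short-term mice Pparg averaged 4.91 ± 0.621, Fabp4 3.32 ± 0.679 and Angptl4 3.29 ± 1.20 CPM per kb, so that Angptl4 stood below Pparg and its SD range overlapped that of Fabp4. The SD ranges of Plin2 and Gpihbp1 overlapped in short-term mice, at 26.6 ± 5.83 and 21.9 ± 4.65 CPM per kb, and in long-term mice, at 32.2 ± 3.91 and 26.3 ± 2.94 CPM per kb.

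**Figure D1:**
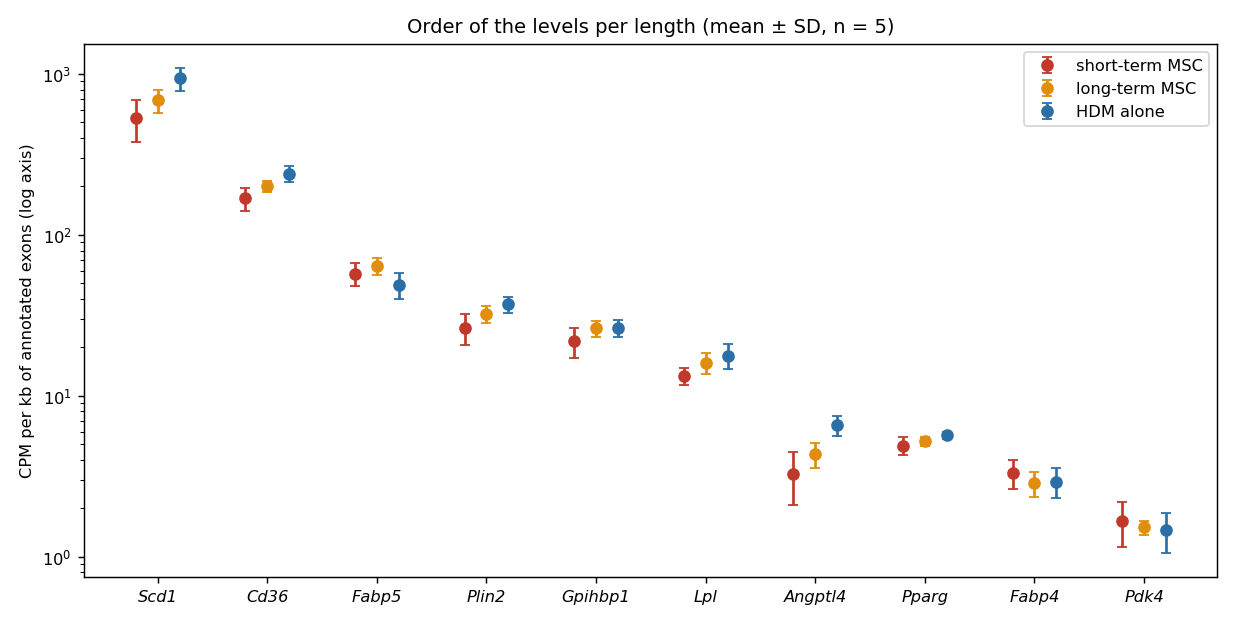
Mean level of each gene per kilobase of annotated exon (CPM per kb, log axis) in short-term MSC, long-term MSC and HDM mice, left to right for each gene; bars are the SD of 5 libraries. Scd1 and Cd36 were highest in all 3 groups, and Angptl4 was above Pparg in HDM mice but below it in both MSC groups. The length joins the exons of all annotated transcripts, so the order of genes depends on the annotation.

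In short-term mice 3 of the 10 genes were lower than in HDM mice and none was higher: Angptl4, an inhibitor of lipoprotein lipase, Scd1, which makes monounsaturated fatty acids, and Cd36, the fatty acid translocase. The fitted ratio of short-term to HDM was 0.502 for Angptl4, 0.565 for Scd1 and 0.705 for Cd36. A gene is called at an adjusted p under 0.05 by edgeR's quasi-likelihood test with Benjamini-Hochberg adjustment over all tested genes, and this rule called 937 genes, 4.79% of those tested, with 371 higher (1.9%) and 566 lower (2.89%). With upper-quartile scaling the calls over all genes split into 481 higher and 298 lower, while the same 3 of the 10 genes were called lower. The count of 937 depended on single libraries: it was 449, 259 and 375 without HDM replicate 1, 2 or 4, 551 without long-term replicate 5, 378 and 160 without short-term replicate 2 or 5, and 1294 (6.58% of 19657, with 3.23% higher and 3.36% lower) without short-term replicate 3. The median log2 fold change of the 10 genes was -0.35, with 7 below 0, against 0.03 over all tested genes. Without short-term replicate 3 the same 3 genes were called and the median was -0.24. Earlier results of these data were known at the choice of genes, so medians over the 10, here and below, are descriptions only.

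**Figure D2:**
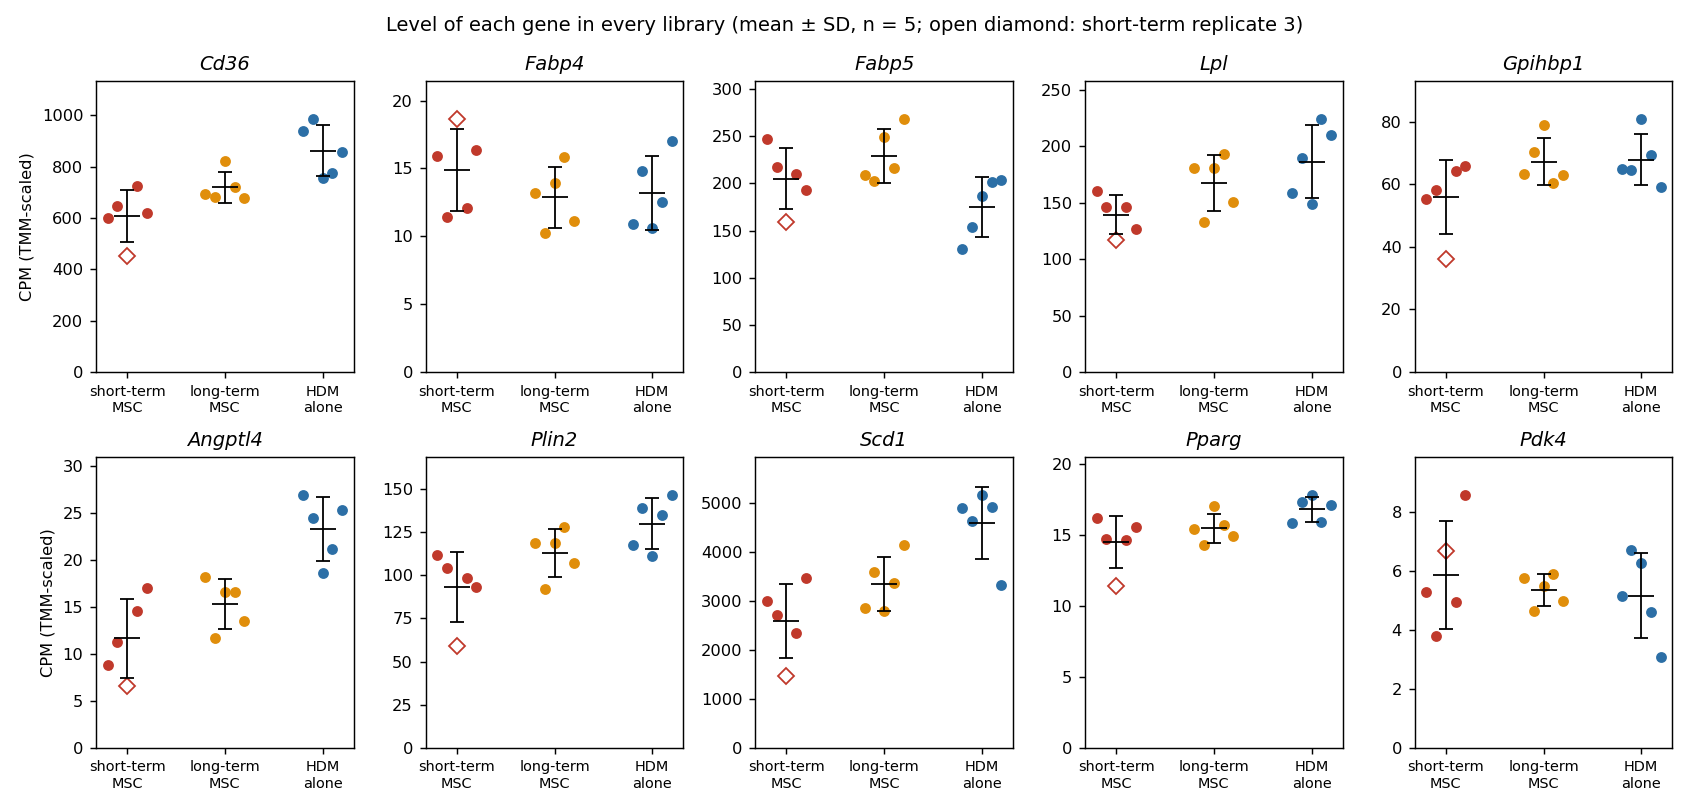
CPM of each of the 10 genes in every library, with short-term MSC, long-term MSC and HDM alone from left to right. Points are single mice, lines are the mean and SD of 5, and the open diamond is short-term replicate 3. All short-term points of Cd36 and Angptl4 lie below all HDM points, while Fabp4 and Pdk4 overlap in all 3 groups. The share of all tested genes that separate in this way is not given, so this is a description only.

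**Figure D3:**
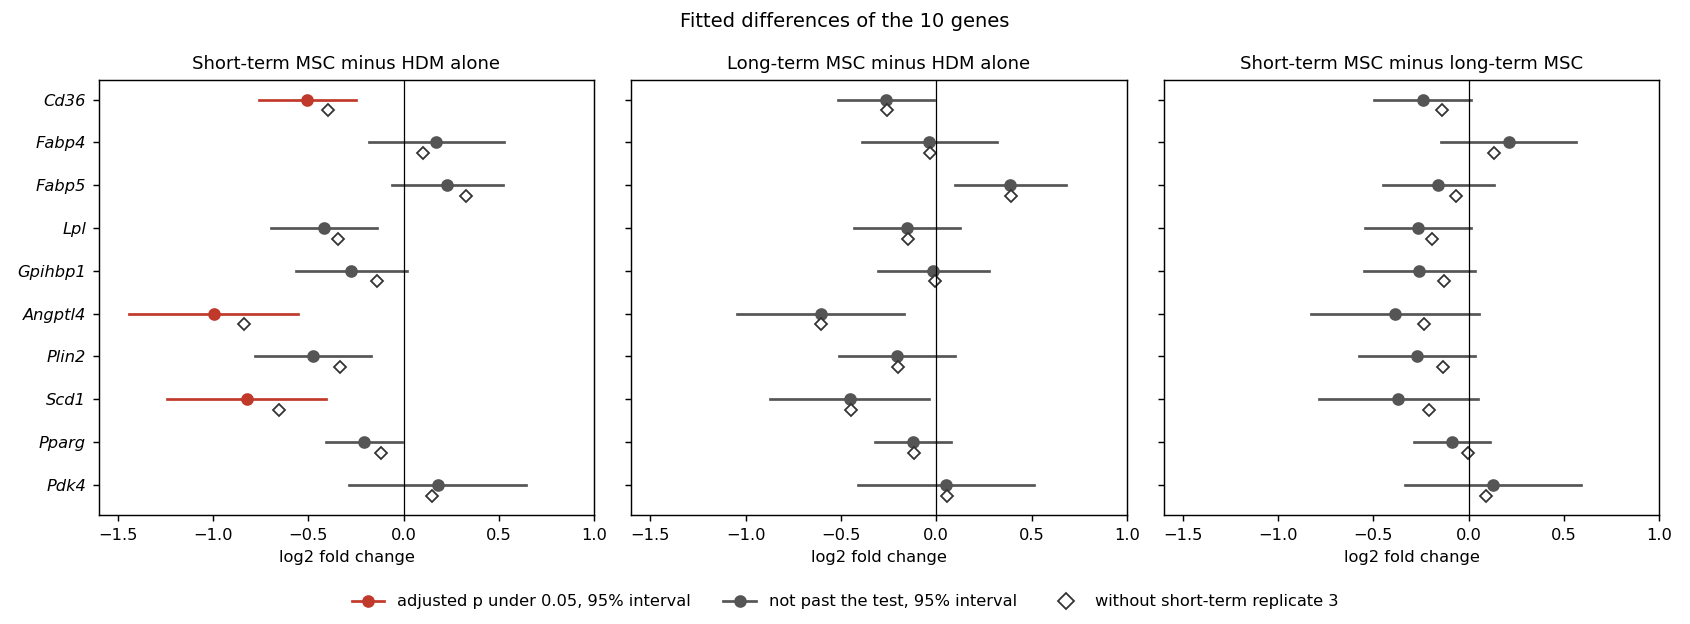
Fitted log2 fold changes of the 10 genes for the 3 comparisons, with 95% intervals and, as diamonds, the values without short-term replicate 3. Angptl4, Scd1 and Cd36 are past the test in short-term against HDM, and no gene is in the comparisons of long-term with HDM or of short-term with long-term.

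Cd36 encodes a membrane glycoprotein that takes up long-chain fatty acids and oxidised lipoproteins in macrophages, endothelium and other cells. The gene spans chr5:17781690-17888801 on the minus strand. Its level in replicates 1 to 5 was 599, 646, 450.4, 723 and 619 CPM in short-term lungs, 693, 680.1, 821, 720.3 and 678 CPM in long-term lungs and 938, 985, 756, 775 and 855 CPM in HDM lungs. Every short-term library was below every HDM library, with replicate 4 of the short-term group (723 CPM) closest to HDM replicate 3 (756 CPM). The share of all tested genes whose groups separate fully is not given. Such separations, here and for the other genes, are descriptions only. The log2 fold change was -0.50 ± 0.12 (SE; adjusted p = 0.0293, edgeR), and -0.40 ± 0.09 (adjusted p = 0.0224) without short-term replicate 3. Its call was lost without HDM replicate 1 (adjusted p = 0.0645), 2 (0.0729) or 5 (0.050007), without short-term replicate 1 (0.0551), 2 (0.0539) or 5 (0.0709), without HDM replicates 1 and 2 together (0.115), without a filter on low counts (0.0735) and with only the 2 groups fitted (0.117). In the long-term group 4 of 5 libraries lay below the lowest HDM value of Cd36, and the log2 fold change of -0.26 ± 0.12 did not pass the test (adjusted p = 0.338, edgeR), and was -0.14 without HDM replicates 1 and 2. In bulk tissue, fewer cells of a type that carries a transcript and less transcript per cell cannot be told apart, here and for the other genes.

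Markers of the cells that could carry these transcripts were read in the same libraries. Over all tested genes, 2.89% were called lower in short-term and 0.092% in long-term mice, both against HDM. The summed level of 13 markers of capillary endothelium was 1913 to 3769 CPM in short-term, 3138 to 4156 CPM in long-term and 3428 to 4376 CPM in HDM libraries, and 2 of the 13 were called lower in short-term against HDM. For 14 alveolar macrophage markers the sums were 3107 to 6758 CPM in short-term, 4725 to 7013 CPM in long-term and 4158 to 7114 CPM in HDM libraries, with 1 of 14 called lower. Chil3, 1 of these markers, held 5333 of the 7114 CPM in HDM replicate 2, so this sum mostly follows 1 gene. For 14 AT2 markers they were 11115 to 22219 CPM in short-term, 19949 to 25610 CPM in long-term and 19421 to 26483 CPM in HDM libraries, with 2 of 14 called lower. The lowest value of each of these 3 lists in the short-term group was that of replicate 3, and without it the short-term sums began at 3484 CPM for capillary endothelium, 4999.9 CPM for alveolar macrophages and 18720.0 CPM for AT2 cells. For B cells, whose 10 markers summed to 188 to 377 CPM in short-term, 292 to 380 CPM in long-term and 441 to 635 CPM in HDM libraries, 8 of 10 were called lower in short-term and 1 of 10 in long-term mice, both against HDM. None of these markers was at 0 in all libraries. In short-term against HDM the median log2 fold change was -0.43 for the AT2 markers and -0.98 for the B cell markers. Both lay below the -0.35 of the 10 genes. The median was -0.12 for capillary endothelium and -0.10 for alveolar macrophages. The part of cell composition in the differences of the 10 genes was not tested.

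Of lipoprotein lipase and its 2 regulators, Angptl4 was called lower and Lpl and Gpihbp1 were not. Angptl4, a secreted protein that unfolds and inhibits lipoprotein lipase and a well-known target of PPARs, of glucocorticoids and of hypoxia, lies at chr17:33773750-33781830 on the minus strand. Replicates 1 to 5 had 8.82, 11.3, 6.57, 14.6 and 17.1 CPM in short-term lungs, 18.2, 11.7, 16.7, 16.6 and 13.5 CPM in long-term lungs and 26.98, 24.5, 18.6, 21.2 and 25.4 CPM in HDM lungs. All short-term and all long-term libraries were below the lowest HDM library. Short-term against HDM gave a log2 fold change of -0.995 ± 0.209 (adjusted p = 0.0194, edgeR), and -0.84 ± 0.17 (adjusted p = 0.0159) without short-term replicate 3. This call held in each of the 15 fits that left out 1 library, with adjusted p from 0.0159 to 0.0496, but not without HDM replicates 1 and 2 together (log2 fold change -0.88, adjusted p = 0.0708). Angptl4 was also not called when only the 2 groups were fitted (adjusted p = 0.0894), a fit in which no gene was called and 3494 had an unadjusted p under 0.05.

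Lpl, the lipase that hydrolyses triglyceride in lipoproteins, at chr8:68880491-68907448 on the plus strand, had 161, 146, 117, 146 and 127 CPM in short-term replicates 1 to 5, 181, 133, 181, 193 and 150.4 CPM in long-term lungs and 159, 189, 149, 224 and 211 CPM in HDM lungs. Short-term and HDM libraries overlapped, with short-term replicate 1 above HDM replicates 1 and 3. The log2 fold change was -0.42 ± 0.13 and missed the threshold (adjusted p = 0.0723, edgeR; 0.105 without short-term replicate 3). Lpl was called by edgeR without HDM replicate 3 (adjusted p = 0.0433), by DESeq2 (0.0263) and by limma voom with quality weights (0.0459). Gpihbp1, the endothelial protein that carries the lipase across capillary cells and holds it there, at chr15:75596628-75599481 on the plus strand, had 55.3, 58.2, 36.2, 64.3 and 65.97 CPM in short-term, 63.2, 70.2, 78.9, 60.5 and 63.02 CPM in long-term and 64.9, 64.6, 80.9, 69.5 and 59.3 CPM in HDM replicates 1 to 5. All groups overlapped, and short-term replicate 3 was the lowest of all 15 libraries. Its log2 fold change in short-term against HDM was -0.27 ± 0.14 (adjusted p = 0.236, edgeR), and -0.14 ± 0.10 (adjusted p = 0.405) without replicate 3.

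Scd1, stearoyl-CoA desaturase 1, puts the double bond into saturated fatty acids and was the most abundant of the 10 genes. It lies at chr19:44394455-44407879 on the minus strand. Replicates 1 to 5 had 2991, 2699, 1463, 2332 and 3466 CPM in short-term, 2856, 3588, 2791, 3360.2 and 4133 CPM in long-term and 4887, 4633, 5162, 4904 and 3328 CPM in HDM lungs. HDM replicates 1 to 4 were above all libraries of MSC-treated mice, and HDM replicate 5 lay within their range, so the groups overlapped. The log2 fold change in short-term against HDM was -0.82 ± 0.20 (adjusted p = 0.0301, edgeR), and -0.66 ± 0.15 (adjusted p = 0.0222) without short-term replicate 3. The Scd1 call was lost without HDM replicate 1 (adjusted p = 0.0619), 2 (0.0650) or 4 (0.0643) or short-term replicate 2 (0.0622), with HDM replicates 1 and 2 both left out (0.0895), without a filter on low counts (0.0712) and with only the 2 groups fitted (0.113). Short-term replicate 3 was lower than the mean of the other short-term libraries by a log2 difference of -0.97 for Scd1, beside -0.85 for the summed AT2 markers, -0.90 for the capillary endothelial sum and -0.89 for the alveolar macrophage sum.

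Plin2, the perilipin that coats lipid droplets in most cells that are not adipocytes, lies at chr4:86648386-86670060 on the minus strand. It had 112, 104, 58.9, 98.4 and 93.2 CPM in short-term, 119, 92.3, 119, 128 and 107 CPM in long-term and 118, 139, 111, 135 and 147 CPM in HDM replicates 1 to 5. All short-term libraries except replicate 1 were below the lowest HDM library. Its log2 fold change of -0.48 ± 0.14 missed the threshold (adjusted p = 0.0652, edgeR), and so did -0.33 ± 0.10 without short-term replicate 3 (adjusted p = 0.0537). No fit that left out 1 library called it, while DESeq2 (adjusted p = 0.0219) and limma voom with quality weights (0.0398) did.

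Neither intracellular carrier passed the test. Fabp5, the epidermal-type fatty acid-binding protein, which is also found in macrophages and endothelium, lies at chr3:10012548-10016607 on the plus strand. It had 247, 217, 159, 209.8 and 193 CPM in short-term, 209, 203, 249, 217 and 268 CPM in long-term and 130.1, 154, 187, 201 and 203 CPM in HDM replicates 1 to 5. In the short-term group 3 of 5 libraries and in the long-term group 4 of 5 were above every HDM library. The log2 fold change was 0.23 ± 0.14 in short-term (adjusted p = 0.330) and 0.39 ± 0.14 in long-term lungs (adjusted p = 0.223), both against HDM and by edgeR. HDM replicates 1 and 2 were the lowest HDM libraries for Fabp5, and without them the values were 0.07 in short-term and 0.22 in long-term lungs. Fabp4, the adipocyte-type binding protein, which macrophages and capillary endothelium also make, lies at chr3:10204088-10208576 on the minus strand. It had 15.9, 11.4, 18.6, 12.1 and 16.4 CPM in short-term, 13.2, 10.3, 13.9, 15.8 and 11.1 CPM in long-term and 10.9, 14.8, 10.6, 12.6 and 17.04 CPM in HDM replicates 1 to 5, with full overlap. Its log2 fold change in short-term against HDM was 0.17, with a 95% interval from -0.18 to 0.53 (adjusted p = 0.573, edgeR), and 0.10 (adjusted p = 0.747) without short-term replicate 3, its highest library.

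Pparg, the receptor, lies at chr6:115360951-115490399 on the plus strand and varied least of the 10 genes, with a coefficient of variation of 10.0% over the 15 libraries and 6.89% without short-term replicate 3. It had 16.2, 14.7, 11.4, 14.7 and 15.5 CPM in short-term, 15.4, 14.3, 17.05, 15.7 and 14.9 CPM in long-term and 15.8, 17.3, 17.8, 15.9 and 17.1 CPM in HDM replicates 1 to 5. Short-term replicate 3 was the lowest of all libraries, and the remaining short-term libraries ran from just below the HDM range into it. Short-term against HDM gave a log2 fold change of -0.21 ± 0.09 (adjusted p = 0.190, edgeR), and -0.12 ± 0.08 (adjusted p = 0.348) without replicate 3. An annotated antisense gene, Gm44079, overlaps the Pparg locus but none of its exon bases, and had 6 counts in all libraries together against 7593 for Pparg. Pdk4, pyruvate dehydrogenase kinase 4, which turns cells from glucose to fatty acid oxidation and is induced by PPARs and glucocorticoids, lies at chr6:5483351-5496309 on the minus strand. It was the least abundant, with 5.30, 3.80, 6.70, 4.95 and 8.60 CPM in short-term, 5.75, 4.64, 5.50, 5.91 and 4.99 CPM in long-term and 5.14, 6.72, 6.29, 4.62 and 3.08 CPM in HDM replicates 1 to 5. Its log2 fold change in short-term against HDM was 0.18, with a 95% interval from -0.29 to 0.64 (adjusted p = 0.665, edgeR). With 1 library left out it ran from 0.0080 to 0.31, and HDM replicate 5 and short-term replicate 5 held its lowest and highest values.

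In long-term mice none of the 10 genes passed the test against HDM, where 19 genes, 0.0971% of those tested (0.00511% higher and 0.092% lower), were called by edgeR's quasi-likelihood test. Of the 10 genes, 4 had an unadjusted p under 0.05: Angptl4, Scd1 and Cd36 with values below HDM and Fabp5 above it. Over all 19562 tested genes, 2712 had an unadjusted p under 0.05 in the same comparison. Angptl4 came nearest, with a log2 fold change of -0.61 ± 0.21 (adjusted p = 0.206), and -0.60 ± 0.16 (adjusted p = 0.0599) without short-term replicate 3, which shares the estimate of spread although it is not in the comparison. Scd1 had -0.45 ± 0.20 (adjusted p = 0.318). The median over the 10 genes was -0.14, against 0.01 over all tested genes. Without short-term replicate 3 the count over all genes was 433 (2.2%, with 0.483% higher and 1.72% lower) and still none of the 10 genes was called. DESeq2 without that library, a setting chosen after seeing the data, called 1499 genes and 4 of the 10: Angptl4 (adjusted p = 0.00914), Scd1 (0.0246) and Cd36 (0.0474) lower and Fabp5 (0.0336) higher. The HDM libraries are shared with the short-term comparison, so the 2 sets of differences are not independent.

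Short-term against long-term mice gave no called gene among the 10 or among all tested genes (0%), while 1514 genes had an unadjusted p under 0.05, none of them among the 10. DESeq2 called 2 genes and limma voom 1, none of the 10. The point estimates lay below 0 for 8 of the 10 genes, with a median of -0.25 against 0.01 over all tested genes, and of -0.13 without short-term replicate 3. Angptl4 had a log2 fold change of -0.39, with a 95% interval from -0.83 to 0.05, and Scd1 -0.37, with an interval from -0.79 to 0.05 (adjusted p = 0.623 for both, edgeR). Without short-term replicate 3 these values were -0.23 and -0.21 (adjusted p = 0.966 for both). With all libraries the intervals include 0 as well as differences larger than those of long-term against HDM.

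Other genes of the same pathways, in lists chosen with earlier results of these data known, were mostly not called in short-term against HDM (the plot of lipid lists). Over all tested genes 4.79% were called in that comparison, 1.9% higher and 2.89% lower, the shares to set beside the counts below. A single called gene in a list is not a result about the list. Of 17 tested fatty acid carriers and acyl-CoA synthetases, 1 was lower: Got2, the mitochondrial aspartate aminotransferase also described as a plasma membrane fatty acid-binding protein, at 54.6 ± 3.04 CPM in short-term and 68.4 ± 3.06 CPM in HDM lungs (log2 fold change -0.33, adjusted p = 0.0163 by edgeR; 0.0549 without short-term replicate 5). The list's median was -0.08, and -0.0047 without short-term replicate 3. Of 16 lipases, regulators and receptors of lipoproteins, 1 was lower: Apoe, a ligand of lipoprotein receptors that macrophages secrete, at 765 ± 158 CPM in short-term and 1172 ± 223 CPM in HDM lungs (-0.61, adjusted p = 0.0340), with a list median of -0.16. The Apoe call was lost in 7 of the 15 fits with 1 library left out, with adjusted p up to 0.0929. None of 20 PPAR and RXR receptors and coregulators passed the test, with a median of -0.10 that turned to 0.0078 without short-term replicate 3. The coactivators Ncoa1 and Ncoa2 had the smallest p of that list over the 3 comparisons, both in long-term against HDM, with log2 fold changes of -0.20 (adjusted p = 0.157) and -0.17 (0.170). In short-term against HDM they had -0.18 (adjusted p = 0.0871) and -0.10 (0.247). Ppara (0.19), Ppard (-0.10) and Rxra (-0.15) had adjusted p of 0.702, 0.681 and 0.560.

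Among 28 PPAR target genes of fatty acid oxidation, 3 were called, all lower, beside 2.89% of all tested genes called lower. The list's median was -0.07, or 0.010 without short-term replicate 3. Cpt1a, the enzyme that commits fatty acids to mitochondrial oxidation, had 125, 113, 104, 128 and 135 CPM in short-term, 159, 128, 139, 143 and 138 CPM in long-term and 175, 189, 179, 165 and 154 CPM in HDM replicates 1 to 5. All its short-term libraries were below all HDM libraries, and its log2 fold change of -0.51 (adjusted p = 0.0109, edgeR) was called in each of the 15 fits with 1 library left out. Cpt1a stayed past the threshold without HDM replicates 1 and 2 together (-0.44, adjusted p = 0.0487) but not when only the 2 groups were fitted (0.0784). Acot2, a mitochondrial acyl-CoA thioesterase, averaged 7.05 ± 1.10 CPM in short-term and 11.4 ± 2.13 CPM in HDM lungs (-0.69, adjusted p = 0.0203), and its call was lost without HDM replicate 2 (0.0549) or short-term replicate 5 (0.0530). Ucp2, an inner mitochondrial membrane carrier abundant in immune cells, averaged 261 ± 22.7 CPM in short-term and 339 ± 28.8 CPM in HDM lungs (-0.38, adjusted p = 0.0340), called in 6 of the 15 fits with 1 library left out.

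Of 18 lipid droplet and lipolysis genes 1 was lower: Cideb, a droplet protein known from lipoprotein secretion in liver, at 1.78 ± 0.239 CPM in short-term and 3.003 ± 0.713 CPM in HDM lungs (-0.76, adjusted p = 0.0415, edgeR), called in 5 of the 15 fits with 1 library left out. The median of that list was 0.14, and 0.27 without short-term replicate 3. None of 11 desaturases and elongases passed, with a median of -0.07 that turned to 0.09 without that library. Elovl1, an elongase of saturated very long chains, was nearest, at 164, 176, 68.1, 161 and 157 CPM in short-term and 179.9, 171, 300.5, 296 and 314 CPM in HDM replicates 1 to 5 (-0.79, adjusted p = 0.0521). HDM replicates 1 and 2 were lower than the other HDM libraries, and Elovl1 was called when short-term replicate 3 was left out (-0.60, adjusted p = 0.0374) or HDM replicates 1 and 2 were (-1.05, adjusted p = 0.0462). Scd4, a desaturase close to Scd1, had a log2 fold change of 0.36 (adjusted p = 0.0980).

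Of 13 genes of pyruvate dehydrogenase and its kinases and phosphatases, 1 was lower: Pdk2, a kinase that inhibits the complex, at 26.8 ± 4.12 CPM in short-term and 39.6 ± 9.21 CPM in HDM lungs (-0.56, adjusted p = 0.0400, edgeR), called in 3 of the 15 fits with 1 library left out. The list's median was -0.03. Because Angptl4 and Pdk4 are also induced by glucocorticoids, 14 glucocorticoid targets were read beside them. Zbtb16, a zinc finger factor, was higher at 114 ± 21.8 CPM in short-term against 52.7 ± 22.7 CPM in HDM lungs (1.11, adjusted p = 0.0168; 0.0508 without short-term replicate 5), as was Tsc22d3, the leucine zipper protein GILZ, at 205 ± 38.9 CPM in short-term against 122 ± 36.2 CPM in HDM lungs (0.74, adjusted p = 0.0338). Sgk1, a kinase that regulates ion channels, was lower at 106 ± 18.6 CPM in short-term against 154 ± 21.6 CPM in HDM lungs (-0.54, adjusted p = 0.0242), and so was Lcn2, an iron-binding neutrophil and epithelial protein, at 926 ± 365 CPM in short-term against 1659 ± 281 CPM in HDM lungs (-0.84, adjusted p = 0.0461). With 1 library left out, Zbtb16 was called in 14 of 15 fits, Tsc22d3 in 9, Sgk1 in 10 and Lcn2 in 3. In long-term against HDM and in short-term against long-term none of the genes on these 8 lists was called. Without short-term replicate 3, Med1, a PPAR coactivator, was called lower in long-term against HDM (-0.22, adjusted p = 0.0495). In short-term against HDM, leaving out that library gave calls for Plin4 (0.80, adjusted p = 0.0358), Mpc1 (0.30, 0.0466) and Fkbp5 (0.45, 0.0189, against 0.98 and 0.0671 with it), all higher, besides Elovl1, and lost Pdk2 (-0.49, 0.0552). Without HDM replicates 1 and 2 together Cpt1a was the only one of the 11 called genes of these lists to keep its call, and the other 10 had adjusted p from 0.0552 (Got2) to 0.174 (Pdk2, with a log2 fold change of -0.30).

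**Figure D4:**
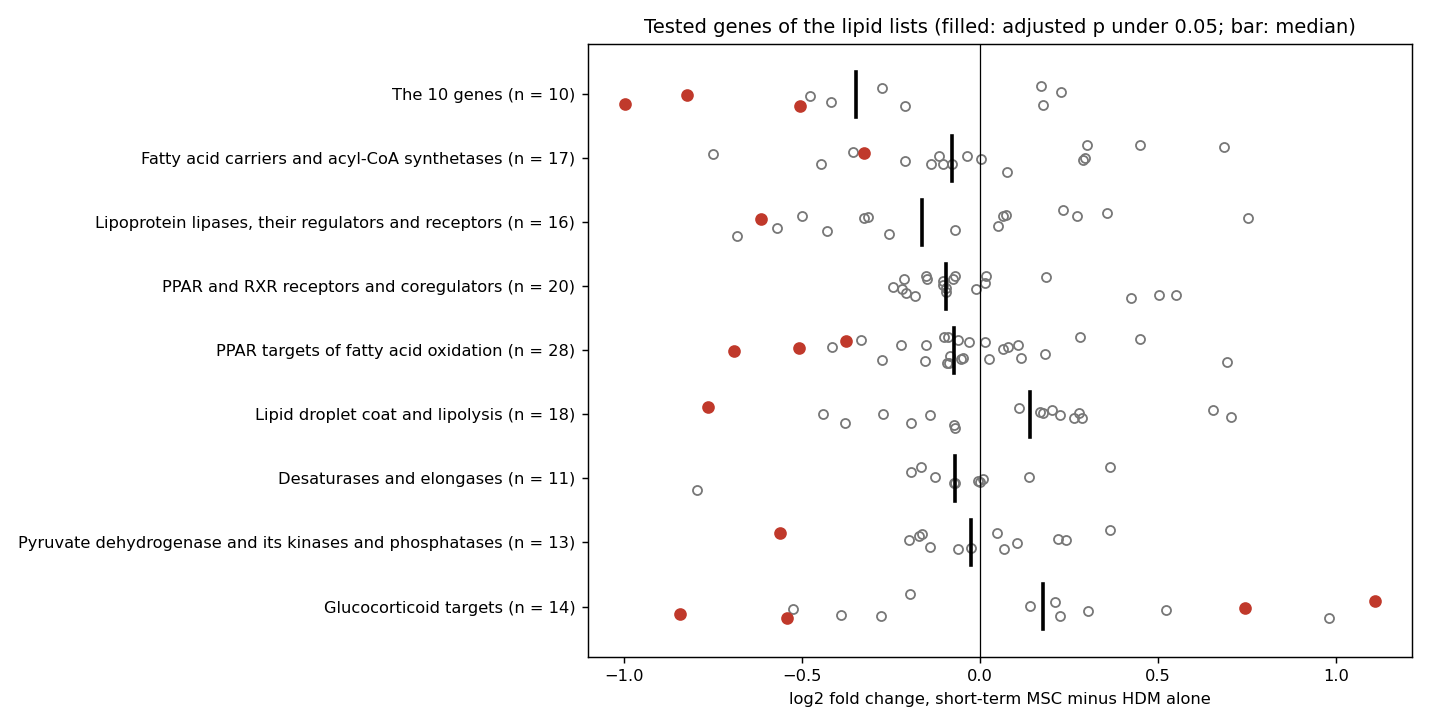
Log2 fold change in short-term MSC against HDM alone for every tested gene of the 10 genes and of 8 related lists; filled points passed the test and vertical bars are medians. Of the sets plotted, the 10 genes have the lowest median, -0.35, and the medians of the lists lie between -0.16 and 0.18. The AT2 and B cell marker lists, not plotted, had lower medians of -0.43 and -0.98. Genes and lists were chosen with earlier results of these data known, so the order of the medians is a description only.

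Across the 14 libraries without short-term replicate 3, 2 of the 45 pairs of the 10 genes were correlated after adjustment over the pairs, and both correlations were positive. Lpl and Plin2 had Pearson's r = 0.942 and Spearman's rho = 0.960 of log2 CPM (permutation p = 1e-05 for each, the smallest that 100000 resamples can give; adjusted p = 0.00045 for each). Without the 2 libraries farthest from the median of Lpl r was 0.938, and as deviations from group means it was 0.932, so the relation held within groups as well. Cd36 and Angptl4 had r = 0.838 and rho = 0.815 (permutation p = 0.00024 and 0.00068, adjusted p = 0.0054 and 0.0153), and r = 0.770 without the 2 libraries farthest from the median of Cd36. As deviations from group means Cd36 and Angptl4 had r = 0.533 (adjusted p = 0.263, permutation test), so a relation within groups was not shown. With all 15 libraries 19 pairs passed by Pearson's r, of which 18 were positive, and fewer passed by Spearman's rho. As deviations from group means, Fabp4 and Plin2 had rho = 0.802 (adjusted p = 0.0216) but r = 0.748 (adjusted p = 0.0652), by permutation. Permutations of deviations moved them freely between groups and did not allow for the group means taken out. Their p-values can therefore be too small.

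**Figure D5:**
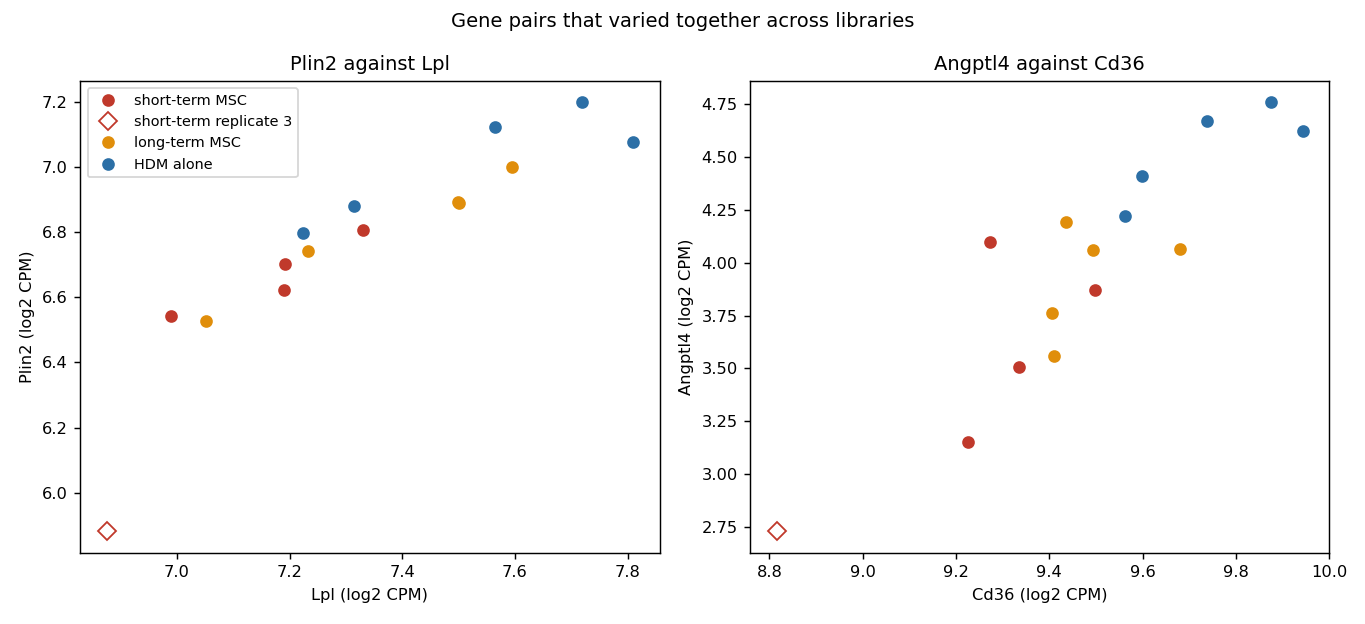
Log2 CPM of Plin2 against Lpl (left) and of Angptl4 against Cd36 (right), 1 point per library coloured by group, with short-term replicate 3 as an open diamond. The first pair lies along a line in all 3 groups (r = 0.942 without the diamond). In the second (r = 0.838 without the diamond) the HDM points lie above all others for Angptl4, while the short-term and long-term points overlap.

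By the same measure, over the 14 libraries and the 14041 genes that averaged 1 CPM or more, the genes most like Cd36 were Snap29 (r = 0.95), a membrane fusion protein, Snx4 (0.94), a sorting nexin, and Sh3glb1 (0.94), an endophilin. Those most like Angptl4 were Tlr3 (0.88), a sensor of double-stranded RNA, Uhmk1 (0.88), a kinase, and Egfr (0.88), the epidermal growth factor receptor. Those most like Scd1 were Pkp4 (0.87), Prkd2 (0.87) and Xkrx (0.86), and those most like Pparg were Setmar (0.89), Ldlrad3 (0.83) and Map10 (0.82). With short-term replicate 3 included, r fell to 0.05 for Scd1 with Prkd2 and to 0.02 for Scd1 with Xkrx, and to 0.11 and 0.13 for Pparg with Setmar and Ldlrad3. These are descriptions over libraries that share group differences and carry no test.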

How the data were processed

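RNA-seq libraries of whole lung lobes were made with a kit that keeps strand, per the labels' protocols. The authors deposited raw counts, with Ensembl genes in rows and 15 libraries in columns. The submitters' processing notes name STAR 2.5.3a and the build GRCm38. Neither the counting tool nor its strand setting is given there, so reads of overlapping genes cannot be told apart. Gene positions and exon lengths come from a GENCODE annotation of GRCm38, whose IDs matched 55240 of 55421 rows.

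Genes were filtered with edgeR's filterByExpr and scaled by TMM. All 15 libraries were fitted together with edgeR 4.0.16 quasi-likelihood tests (robust shrinkage, R 4.3.3), with 3 contrasts, two-sided p-values and Benjamini-Hochberg adjustment over all 19562 tested genes. A difference is called at an adjusted p under 0.05. CPM use TMM-scaled library sizes. Log2 CPM for correlations use a prior count of 2, and their permutation tests are two-sided with 100000 resamples in Python 3.11.15. Figures were drawn with matplotlib 3.10.9. The 10 genes had 99 to 190157 counts in a library, the fewest for Pdk4. The gene test was tried on simulated counts with known changes. The outcome of that trial is not given here and is not used to judge the calls.

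The 10 genes and the lists were chosen with earlier results of these data known. All 10 are named. Of each list, up to 4 genes called in any comparison are named, or the 2 with the smallest p; Ppara, Ppard, Rxra, Med1, Plin4, Mpc1 and Fkbp5 were added after their values were seen. The result of 1 further list gene is not reported here. The alternatives tried were scaling by RLE or upper quartiles, no filter, a mean of at least 1 CPM, DESeq2 1.42.0, limma 3.58.1 voom with quality weights, no robust shrinkage, a fit of the 2 groups compared, and leaving out each library or HDM replicates 1 and 2. Fits without short-term replicate 3 by DESeq2, or together with HDM replicates 1 and 2, were added after seeing the data. Replicate numbers follow the order of deposit and pair nothing.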

Additional observations from a re-analysis of the deposited data

Results flagged for a closer look

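In groups of 5 libraries, the gap between the most extreme value and its neighbour was compared with the whole range (Dixon's ratio, critical value 0.71). Of 105 groups examined 7 passed, and chance gives about 1 in 20. Of the 30 groups of the 10 genes, 1 passed: Scd1 in HDM replicate 5, at 3328 CPM against 4633 to 5162 CPM in the other HDM libraries.

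Of these values, 4 belong to short-term replicate 3. Acot2 was 5.12 CPM in it, against 7.30 to 7.87 CPM in the other short-term libraries, and Elovl1 was 68.1 CPM, against 157 to 176 CPM. The summed capillary endothelial markers were 1913 CPM, against 3484 to 3769 CPM, and the summed thymocyte markers 4056 CPM, against 86.4 to 129 CPM. In HDM replicate 3, Ucp2 was 288 CPM, against 347 to 357 CPM in the other HDM libraries, and Zbtb16 was 92.0 CPM, against 34.8 to 50.5 CPM.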

How the results depend on the processing

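For the 10 genes, 740 of 780 fold changes under the alternatives kept their direction and their side of the threshold, 18 lost the threshold, 11 gained it and 11 turned direction, all of the last near 0 and not called. For 15 named list genes, followed in short-term against HDM, 270 of 390 kept both, 110 lost and 10 gained the threshold, and none turned. The number of the 10 genes called in short-term against HDM was 3, but 5 by DESeq2 and by limma voom, 1 without a filter on low counts, 0 with only the 2 groups compared, 0 without HDM replicates 1 and 2, and 1 to 4 with 1 library left out. In long-term against HDM it was 0, but 4 by DESeq2 without short-term replicate 3.

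Over all genes, short-term against HDM called 937, but 208 without a filter, 2066 by DESeq2, 2413 by limma voom, 0 with only the 2 groups compared (3494 at an unadjusted p under 0.05), 183 without HDM replicates 1 and 2, 2279 when short-term replicate 3 was left out too, 2385 by DESeq2 without that library, and 160 to 1294 with 1 library left out. Long-term against HDM called 19, but 0 with upper-quartile scaling (2835 at an unadjusted p under 0.05), 2 without a filter, 680 by DESeq2, 494 by limma voom, 36 with only the 2 groups compared, 2 without HDM replicates 1 and 2, 492 when short-term replicate 3 was left out too, 1499 by DESeq2 without that library, and 0 to 433 with 1 library left out. Short-term against long-term called 0, but 2 by DESeq2, 1 by limma voom and 4 by DESeq2 without short-term replicate 3. The median log2 fold change of all genes in short-term against HDM was 0.03 with TMM and 0.09 with upper-quartile scaling. Among pairs of the 10 genes 2 correlations passed by Pearson's r, against 19 with all 15 libraries and 1 as deviations from group means.

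Directions turned, all near 0, for Pdk4 in short-term against long-term (-0.0774 by limma voom, and -0.0482 to 0.257 with 1 library left out) and, with 1 library left out, for Pdk4 (-0.0822 to 0.167), Fabp4 (-0.122 to 0.0797) and Gpihbp1 (-0.0722 to 0.0569) in long-term against HDM. The cause of these shifts was not tested. No paired analysis was possible because the replicate numbers follow the order of deposit. With 5 mice a group, the 95% intervals of short-term against HDM included 0 for 4 of the 10 genes (Fabp4, Fabp5, Gpihbp1 and Pdk4), and that of Pdk4 reached 0.64.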

Other observations

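Fabp4, Plin2, Lpl and Cd36 are also genes of fat cells, and the MSCs came from adipose tissue, so markers of fat cells were read in the same libraries. The 14 adipocyte markers summed to 52.4 to 100.5 CPM in short-term, 71.4 to 92.9 CPM in long-term and 65.5 to 106.8 CPM in HDM libraries, with 1 of 12 tested called lower in short-term against HDM and Aqp7, a glycerol channel, under 0.1 CPM on average. Over all tested genes 2.89% were called lower in that comparison. Of the 106.8 CPM in HDM replicate 3, Lipe held 35.9, Slc7a10 25.2, Nnat 15.6 and Cfd 14.8 CPM. Adipoq, Plin1 and Lep were at 1.61, 1.96 and 0.24 CPM in that library. The adipocyte sum thus mostly follows Lipe, Slc7a10, Nnat and Cfd. The 8 brown adipocyte markers summed to 18.8 to 32.6 CPM in short-term, 24.8 to 34.3 CPM in long-term and 22.4 to 34.9 CPM in HDM libraries, none of the 5 tested was called, and Ucp1, the uncoupling protein of brown fat, Elovl3 and Otop1 were under 0.1 CPM on average. Most of the brown adipocyte sum was Kcnk3, at 26.7 of the 34.9 CPM in HDM replicate 4. Cardiomyocytes also make much Cd36 and Lpl, and their 14 markers summed to 246 to 1263 CPM in short-term, 492 to 1043 CPM in long-term and 180 to 917 CPM in HDM libraries, with none called. The 10 lipofibroblast markers summed to 4324 to 6525 CPM in short-term, 5386 to 6387 CPM in long-term and 5233 to 6166 CPM in HDM libraries, with none called. Macf1 alone held 3337 of the 6166 CPM in HDM replicate 3, so this sum is mostly the level of that gene.

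Correlations of the 10 genes with the summed markers of 4 cell types, chosen after seeing the data, were computed over the 14 libraries without short-term replicate 3 and adjusted over 40 relations. Gpihbp1 and the capillary endothelial sum had Pearson's r = 0.838 and Spearman's rho = 0.745 (permutation p = 0.00015 and 0.00314, adjusted p = 0.006 and 0.0419), with r = 0.639 without the 2 libraries farthest from the median. Lpl and the alveolar macrophage sum had r = 0.719 (adjusted p = 0.0854) and rho = 0.767 (adjusted p = 0.0419), and Plin2 and the same sum r = 0.640 (adjusted p = 0.123) and rho = 0.749 (adjusted p = 0.0419), by permutation. Because Chil3 makes up most of that sum, both are relations with a sum led by 1 gene. A relation with the number of alveolar macrophages was not tested. With all 15 libraries 12 of the 40 relations passed by Pearson's r, against 1 of 40 without short-term replicate 3.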
